A study of Mus musculus with 8 samples.

Results

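Broad H3K4me3 domains of the wild-type mouse testis that lost at least 40% of their covered length without H3f3b are described here, and are called collapsed domains. They were picked from 4 lists of enriched regions, on chromosomes 1 to 19, by 2 conditions. Both wild-type libraries had to cover at least 3000 bp of the domain, and the mean length covered in the null libraries had to be at most 0.6 of the wild-type mean, with an absent domain counted as 0. Of 713 domains that were broad in both wild-type libraries, 270 met this limit. The other 443 are called kept domains. The 4 lists together gave 16000 autosomal regions after merging, of which 12226 were found in both wild-type libraries.

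All samples came from testes of adult C57BL/6 mice, either H3f3b WT/WT (WT) or H3f3b null (KO). Each genotype had 2 H3K4me3 libraries, named WT 66, WT 74, KO 67 and KO 73 by their labels, and the inputs of the series were not analysed here. The labels do not say whether each number is a separate animal, how the null allele was made, or whether littermates were used. Whole testes were used, so fewer cells of a type and less H3K4me3 per cell cannot be told apart in any value below. The H3f3b locus itself was not analysed here, because gene positions in mm9, the build of the lists, were not used, and domains are therefore given by their mm9 coordinates and not by genes.

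H3K4me3 is the trimethylation of lysine 4 of histone H3. It is written by the SET1 and MLL (COMPASS) methyltransferase complexes and marks promoters that are active or poised. At most promoters it forms a short peak around the start site, while broad domains, known from many tissues, often lie over genes of cell identity. H3f3b and H3f3a each encode H3.3, the histone variant that chaperones such as HIRA and DAXX-ATRX place into chromatin outside DNA replication. In the testis, histones are exchanged widely at meiosis and again when spermatids replace them by transition proteins and protamines.

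For WT 66, WT 74, KO 67 and KO 73 the lists held 13686, 14134, 10241 and 12141 autosomal regions, covering 21.6, 20.8, 14.2 and 15.8 Mb. Read depth is not part of the lists. The deposited scores lay on whole multiples of a step in each list, and if a step is 1 read and all lists were scaled alike, which is not stated, KO 67 was 4.46 times, WT 66 1.66 times and WT 74 1.04 times as deep as KO 73. KO 67, the deepest on that reading, had the fewest regions. Where the KO libraries differ below, the part of depth was not tested.

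Collapsed domains were among the longest H3K4me3 domains of the WT testis. In each KO library their median covered length exceeded that of all regions of both WT libraries, but not that of all broad domains. In WT 66 they covered from 3012 to 11774 bp with a median of 4083.5 bp, and in WT 74 from 3001 to 11261 bp with a median of 3977 bp. In KO 67 the range was 0 to 4372 bp with a median of 1591.5 bp, and in KO 73 it was 0 to 6096 bp with a median of 1861 bp. For scale, over all regions of both WT libraries the median was 1515 bp (WT 66), 1424 bp (WT 74), 1170 bp (KO 67) and 1188 bp (KO 73), with absent regions counted as 0. Over all 713 broad domains the KO medians were 2474 bp (KO 67) and 2651 bp (KO 73). The median ratio of KO to WT length was 0.43 in collapsed domains, against 0.66 over all 713 broad domains and 0.83 over all 12226 regions of both WT libraries. These lengths chose the domains, so they are a description and no test of genotype. By the same limit of 0.6, without the condition on width, 27.2% of the regions of both WT libraries would be picked.

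The ratio ran without a gap through the limit that divides collapsed from kept domains. Counted in steps of 0.1, 28 broad domains had a ratio of at most 0.1, 18 lay from 0.1 to 0.2, 28 from 0.2 to 0.3, 44 from 0.3 to 0.4, 70 from 0.4 to 0.5 and 82 from 0.5 to 0.6. The next step, from 0.6 to 0.7, held the most with 137, and only 8 domains exceeded 1. The 3 collapsed domains nearest to the limit had ratios of 0.5987 to 0.5995, and the 3 kept domains nearest to it ratios of 0.6001 to 0.6025. One of the former, at chr10:99218751-99222942, measured 3728 and 3947 bp in the WT libraries but 2167 and 2430 bp in the KO libraries. One of the latter, at chr15:99221793-99226280, covered 4070 and 3977 bp against 2349 and 2489 bp, so that domains on either side of the limit had similar lengths. At the width limit, the collapsed domain with the smallest WT length, at chr17:87314941-87318291, covered 3351 and 3001 bp in WT, and a region at chr11:116325511-116329063 with 3070 and 2999 bp fell just outside.

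**Figure D1:**
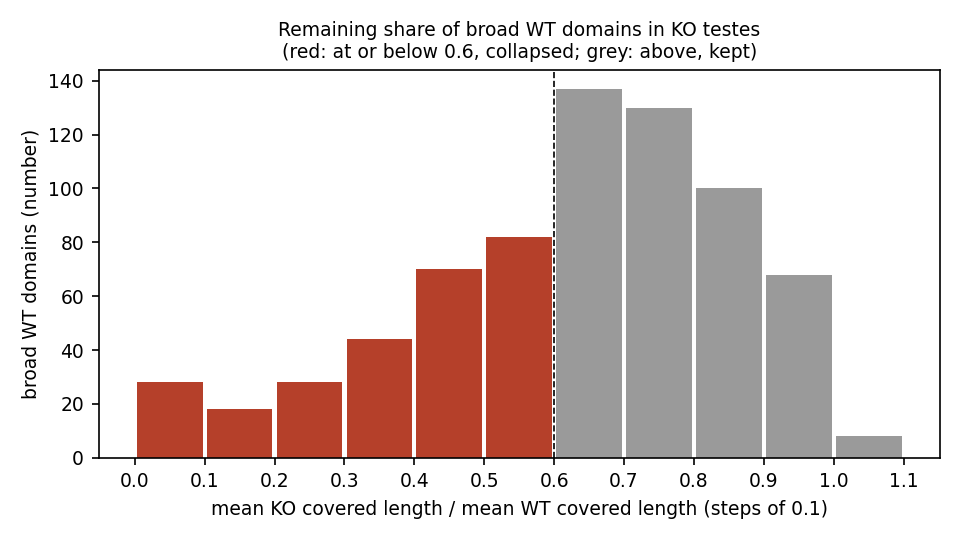
Number of broad WT domains (y axis) by the ratio of mean KO to mean WT covered length (x axis, steps of 0.1); red bars are collapsed and grey bars kept domains. The counts rise from 18 domains between 0.1 and 0.2 to 137 between 0.6 and 0.7, with no gap at the limit of 0.6.

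In 269 of the 270 collapsed domains both KO libraries covered less than both WT libraries. The same order held in 91.4% of all broad domains and in 54.8% of all regions of both WT libraries, and since the limit was set on these lengths nothing is read from the count. The exception was at chr11:83251302-83255026, with 3316 bp (WT 66), 3024 bp (WT 74), 626 bp (KO 67) and 3148 bp (KO 73). There KO 67 alone was low, and KO 73 lay between the WT libraries. KO 67 covered less than KO 73 in 172 of the 270 domains (63.7%), compared with 244 of the 443 kept domains (55.1%). A single library can keep a domain on the list: 21 collapsed domains had a ratio above 0.6 in KO 67 alone and 37 in KO 73 alone, so these met the limit only through the other library. With KO 73 as the only KO library 251 domains met the condition, of which 233 were among the 270, and with KO 67 as the only one 315 did, of which 249 were.

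**Figure D2:**
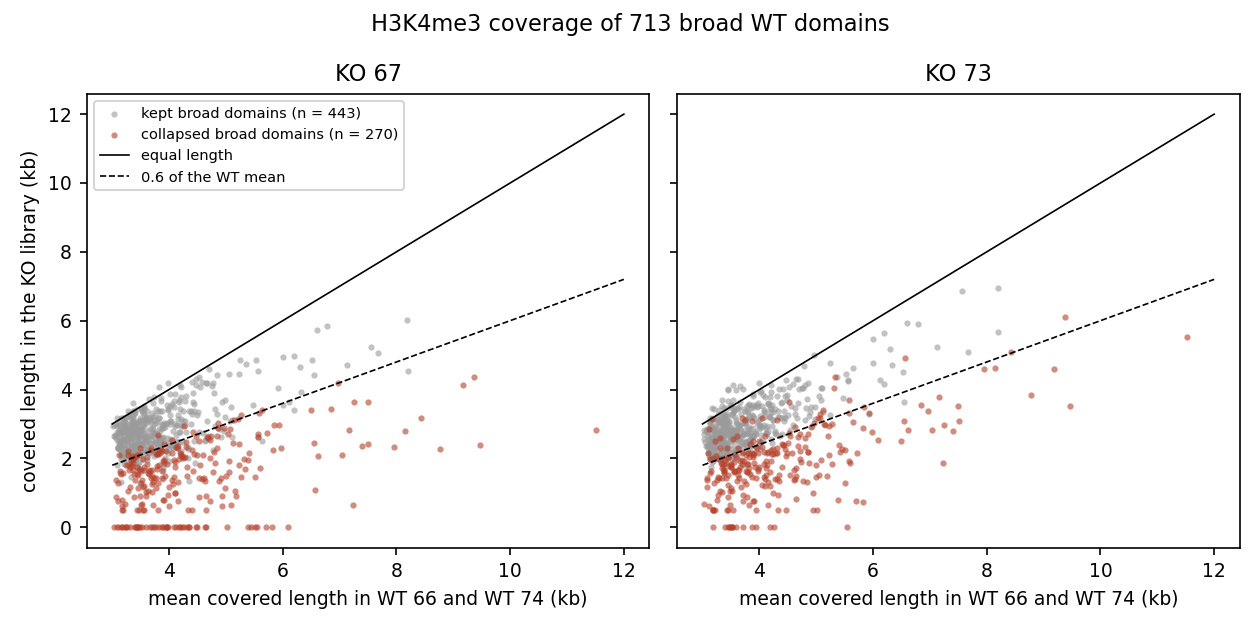
Covered length in KO 67 (left) and KO 73 (right), in kb, against the mean covered length in WT 66 and WT 74, one point per broad WT domain; the solid line is equal length and the dashed line 0.6 of WT. The 270 collapsed domains (red) reach 0 kb in both panels, and more of them lie at 0 in KO 67 (50) than in KO 73 (15).

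What remained took 4 forms. In 144 collapsed domains (53.3%) each KO library had 1 called piece. In 73 (27.0%) both KO libraries had a remnant and at least 1 of them had it in several pieces. In 41 (15.2%) only 1 KO library had a remnant, which was KO 73 in 38 cases and KO 67 in 3. The last 12 (4.44%, 95% exact binomial interval 2.32 to 7.63) were absent from both KO libraries, compared with 1.68% of all broad domains and 11.7% of all regions of both WT libraries, most of which are short. The interval covers counting error only. No kept domain can be absent, because of how the sets were cut.

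The forms differed in their WT length and score. Domains with several KO pieces were the longest, with medians of 4970 bp (WT 66) and 4869 bp (WT 74), against 3817.5 and 3869 bp for those with 1 piece in each KO library. Domains absent from both KO libraries had WT medians of 3790.5 and 3756 bp. Their scores were the lowest: the median of their best-scoring piece was at percentile 73.8 of the WT 66 list and 82.7 of the WT 74 list, against 92.2 and 93.9 for domains left as 1 piece and 93.7 and 95.6 for those left as several. Domains left in 1 KO library lay between, at 79.5 and 87.5.

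The longest collapsed domain, at chr16:17890329-17902102, was a single region of 11774 bp (WT 66) and 11261 bp (WT 74). In KO 67 it was reduced to 1 piece of 2812 bp at its left end, from 17890677 to 17893488. KO 73 had a piece at almost the same place, from 17890886 to 17893525, and 3 further pieces of 501, 764 and 1617 bp to its right. The mean fell from 11517.5 ± 363 bp in WT to 4167 ± 1916 bp in KO (SD, n = 2 each), and the left piece was the part that both KO libraries held.

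A domain at chr19:5842292-5853424 covered 9960 bp (WT 66) and 8971 bp (WT 74), each in 2 pieces. What remained was 2382 bp (KO 67) and 3530 bp (KO 73), and all 2382 bp of KO 67 were also covered in KO 73. As on chromosome 16, the shared remnant lay in the left part of the domain, and the right-hand WT piece had no counterpart in either KO library.

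At chr17:46810375-46820410, the KO libraries kept a piece at the left end and another in the right part. They lost the sequence between and the right end. WT 74 covered 9884 bp in 1 piece and WT 66 8470 bp in 2, with no WT 66 call between 46813263 and 46814341. KO 67 held 1633 and 2497 bp and KO 73 1734 and 2852 bp, at matching positions, with no call between 46812108 and 46816216. At the right end 1381 bp (KO 67) and 1343 bp (KO 73) were lost. A domain at chr14:70604693-70613658 had a similar shape, with 1572 bp (KO 67) and 1176 bp (KO 73) lost at the right end. Its WT libraries covered 7913 and 8003 bp in 2 pieces each, and its KO libraries 2320 and 4601 bp, again in 2 pieces each that overlapped between the libraries.

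At chr9:107448883-107458397, a WT domain of 9515 and 9222 bp was left as 3 pieces in both KO libraries, of 1201, 916 and 2255 bp (KO 67) and of 1007, 1967 and 3122 bp (KO 73). Each KO 67 piece overlapped 1 KO 73 piece. The domain at chr13:23399118-23408080 broke up less alike. KO 67 had 1 piece of 2285 bp and KO 73 had 4 pieces, from 501 to 1688 bp, of which only the last overlapped the KO 67 piece. The remaining domains of the 8 longest, at chr8:73220651-73229486 and chr2:31936200-31944588, covered 3161 and 2797 bp (KO 67) and 5096 and 4620 bp (KO 73), against 8080 to 8553 bp in WT. In all 8 of these domains KO 67 covered less than KO 73.

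**Figure D3:**
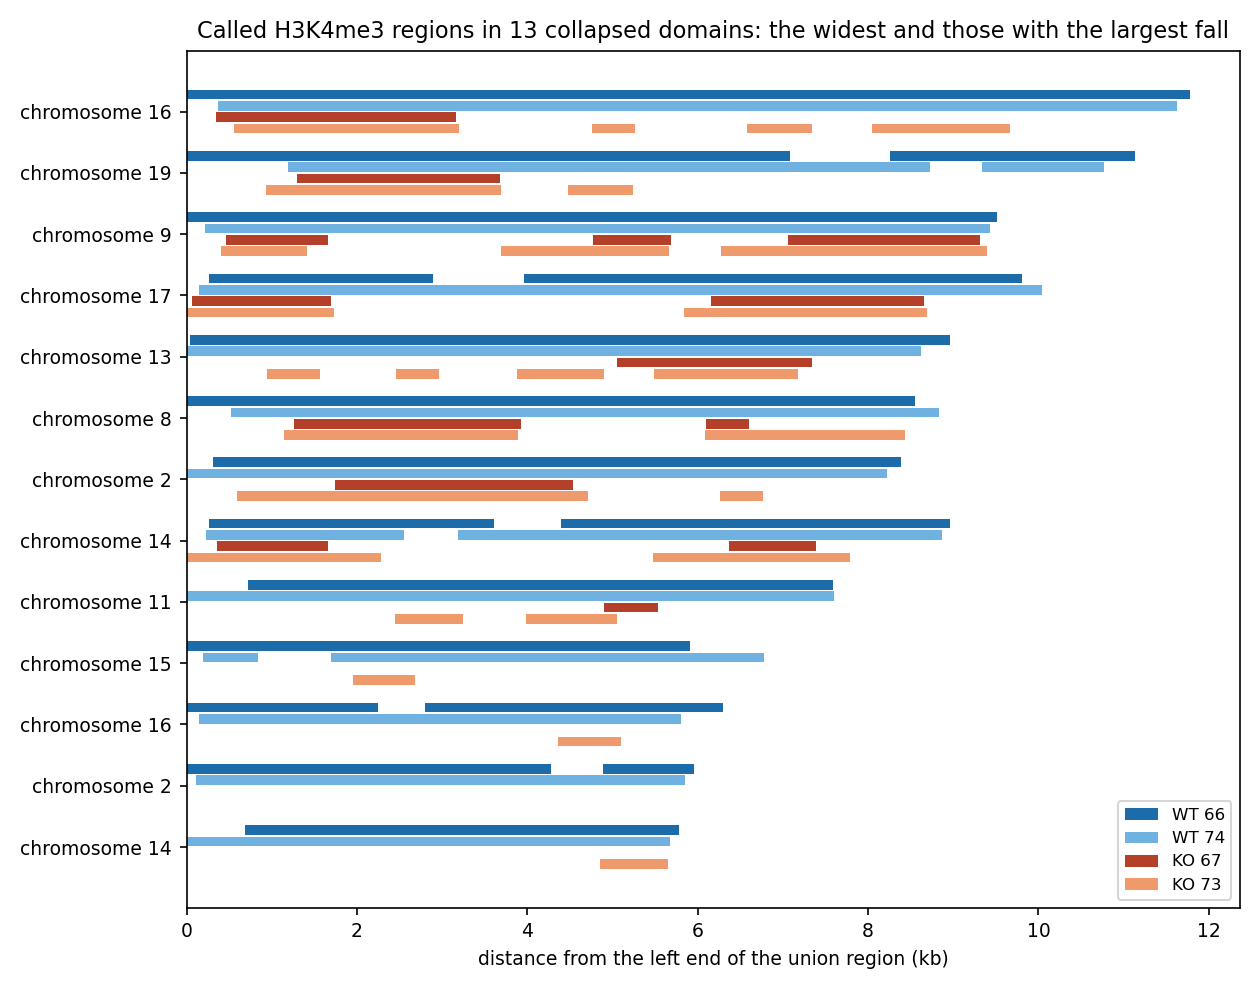
Called H3K4me3 pieces of the 4 libraries in the 13 collapsed domains that are among the 8 longest in WT or have one of the 8 largest falls, by distance in kb from the left end of each domain; dark and light blue bars are WT 66 and WT 74, dark and light red bars KO 67 and KO 73. WT bars fill most of each domain, and all 14 pieces of KO 67, in 9 of the domains, overlap a KO 73 piece, but only 14 of the 26 pieces of KO 73 overlap a KO 67 piece.

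By length lost, the chromosome 16 domain came first with 7350.5 bp, and 4 of the 8 largest falls were in domains that nearly or wholly disappeared. At chr2:25142034-25147989, coverage of 5342 and 5742 bp in WT was absent from both KO libraries. A domain at chr15:82679973-82686750 covered 5911 and 5721 bp in WT, none in KO 67 and 727 bp in KO 73. At chr16:59552583-59558875, the lengths were 5744 and 5655 bp against 0 and 750 bp, and at chr14:69787797-69793581 they were 5095 and 5675 bp against 0 and 795 bp. In all 3 domains the KO 73 remnant scored low, between percentiles 13.9 and 23.8 of its list. The fall of 5984 bp at chr11:103360301-103367897 left 632 bp (KO 67) and 1868 bp (KO 73), of which only 147 bp were shared.

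The 12 domains absent from both KO libraries lay on 7 chromosomes and had WT 66 lengths of 3030 to 5342 bp. After the one on chromosome 2, the next by the smaller WT length were at chr13:56525593-56530859, with 4050 and 4478 bp in WT, and at chr16:34649001-34653014 and chr16:10789243-10793931, with 3886 and 3997 bp and 3777 and 3965 bp. They were followed by chr3:146310336-146314992, with 4657 and 3726 bp, and chr11:88710606-88714831, with 3804 and 3612 bp. The other 6 were on chromosomes 5, 11, 14 and 16. A missing call shows only that the signal did not pass the authors' threshold.

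In 4 of the 6 domains in which the KO libraries disagreed most, KO 67 had no call and KO 73 had one. Relative to WT length, the largest disagreement was at chr9:107829387-107833515, where WT coverage of 3033 and 3202 bp stood against none in KO 67 and 2849 bp in KO 73. At chr4:145650547-145654494 the lengths were 3605 and 3874 bp against 0 and 3124 bp. At chr17:17963306-17970593 they were 5922 and 7200 bp against 1086 and 4927 bp. In all 3, the KO 73 length alone is above 0.6 of the WT mean, so that their place among collapsed domains rests on KO 67.

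Where both KO libraries kept a remnant, the shorter remnant lay mostly inside the longer. Of the 270 domains, 217 had coverage in both KO libraries, and in 216 (80% of all) some of it was shared. The shared core had a median of 1288.5 bp over all 270 domains. In the 217 domains, a median of 98.6% of the shorter KO coverage lay inside the longer one (quartiles 87.2% and 100%), compared with 99.6% in kept domains. In the domain without shared sequence, at chr7:39311362-39315215, both KO libraries had 501 bp, the shortest call in any list, at different places. It is named because it was the exception, after its values had been seen. The KO libraries covered no sequence outside the WT domain in 253 of 270 collapsed domains (93.7%) and in 368 of 443 kept domains (83.1%), whose longer KO coverage has less room inside it.

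Along the domain, coverage was lost from the ends and from the middle. Averaged over the middle 10% of the WT domain, 49.2% of collapsed domains were covered in KO 67 and 56.9% in KO 73, against 97.6% in WT 66 and 96.8% in WT 74. In the outer 10% at each end the shares were 8.28% and 12.4% in KO and 74.5% and 75.4% in WT. Kept domains were covered in the middle in 93.0% (KO 67) and 93.6% (KO 73) of cases and at the ends in 24.1% and 26.7%. The split into collapsed and kept domains was made on KO length, so this difference between them is a description. The KO shares also count absent domains as uncovered. Among the 220 collapsed domains present in KO 67 and the 255 in KO 73, the middle was covered in 60.4% and 60.2%.

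**Figure D4:**
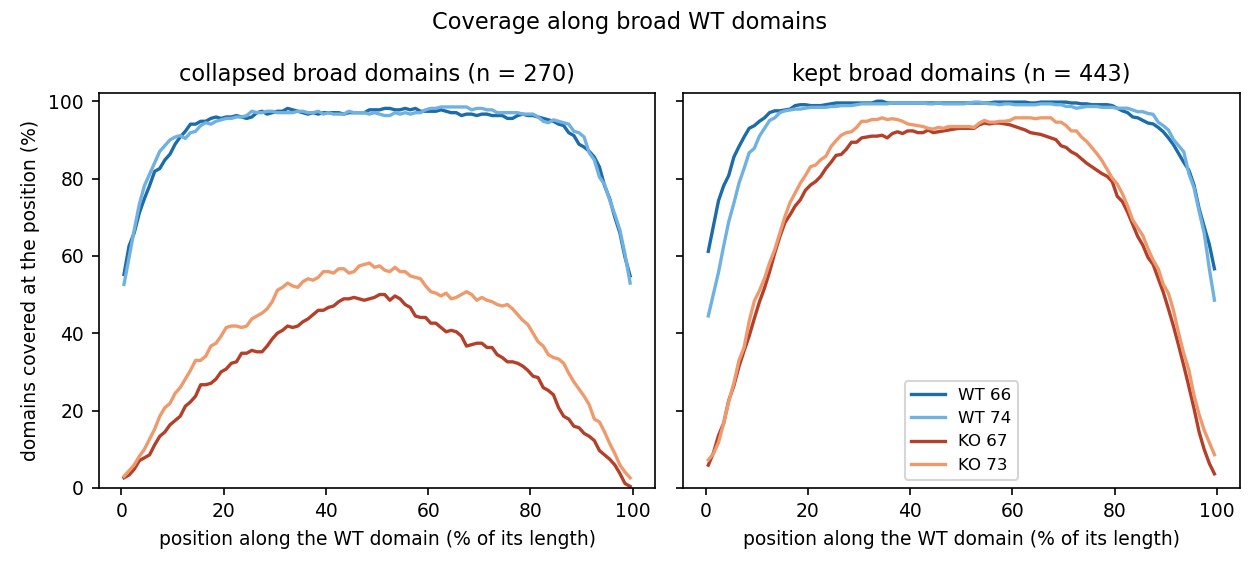
Share of domains covered (y axis, %) at each position along the WT domain (x axis, % of its length) in the 4 libraries, for collapsed (left) and kept (right) domains. In collapsed domains the KO lines peak in the middle near 49.2% (KO 67) and 56.9% (KO 73), while in kept domains they stay near 93% in the middle and fall at the ends.

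The remnant was not always central. Its centre lay between 30% and 70% of the length of the WT domain in 167 of 220 collapsed domains in KO 67 (75.9%) and in 199 of 255 in KO 73 (78.0%). In kept domains the shares were 98.0% and 99.1%, but a long remnant has little room to be off centre. One end lost at least 3 times as much as the other in 45.9% of collapsed domains in KO 67 and 47.5% in KO 73, and in 42.0% and 43.6% of kept domains. The end that lost more was the same in both KO libraries in 171 of 217 collapsed domains (78.8%) and in 352 of 443 kept domains (79.5%). The position of the centre in KO 67 and in KO 73 had a Pearson correlation of 0.74 and a Spearman correlation of 0.76 over the 217 domains, whose bounds come from the same WT libraries. The shares with uneven trimming were thus close in both sets.

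Splitting was partly present in WT already. In 64 of 270 collapsed domains (23.7%) at least 1 WT library had several pieces, compared with 22 of 443 kept domains (4.97%). Of the 206 collapsed domains with 1 piece in each WT library, 44 (21.4%) were present in both KO libraries with several pieces in at least 1, and 11 (5.34%) had several in both. Of 421 such kept domains the counts were 58 (13.8%) and 19 (4.51%). The WT libraries also overlapped less in collapsed domains, with a median Jaccard index (shared length over joint length) of 0.86, against 0.90 in kept domains. The index between the KO libraries was 0.66 over the 217 collapsed domains present in both, and 0.87 in kept domains.

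Collapsed domains were longer than kept ones in WT, and scored lower. The median score percentile was 91.3 in WT 66 and 93.0 in WT 74 for collapsed domains, against 97.2 and 97.4 for kept domains. The scale of the deposited score is not stated, and the percentile is that of the best-scoring piece within its own list. With the broad domains divided into quartiles of the WT 66 score, 127 of 179 (70.9%) in the lowest quartile were collapsed and 38 of 178 (21.3%) in the highest. By the WT 74 score the numbers were 118 of 179 (65.9%) and 45 of 176 (25.6%). The quartiles between had 38.2% and 20.8% by WT 66, so that the share hardly differed between the upper 2.

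Width and score together separated the sets further. Of the domains that measured at least 4000 bp in WT 66 and lay in its lowest score quartile, 37 of 38 were collapsed. Of those below 4000 bp and in its highest quartile, 2 of 68 were. In WT 74 the counts were 20 of 25 and 3 of 67. Score and width come from the libraries that set the limits, so these shares describe the sets and were not tested. To keep the WT length that sets the bin apart from the one in the ratio, domains were binned by WT 66 and the KO mean was divided by WT 74. The median ratio was then 0.26 in the long domains of the lowest score quartile and 0.85 in the short domains of the highest. Binned by WT 74 and divided by WT 66, the medians were 0.29 and 0.81.

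**Figure D5:**
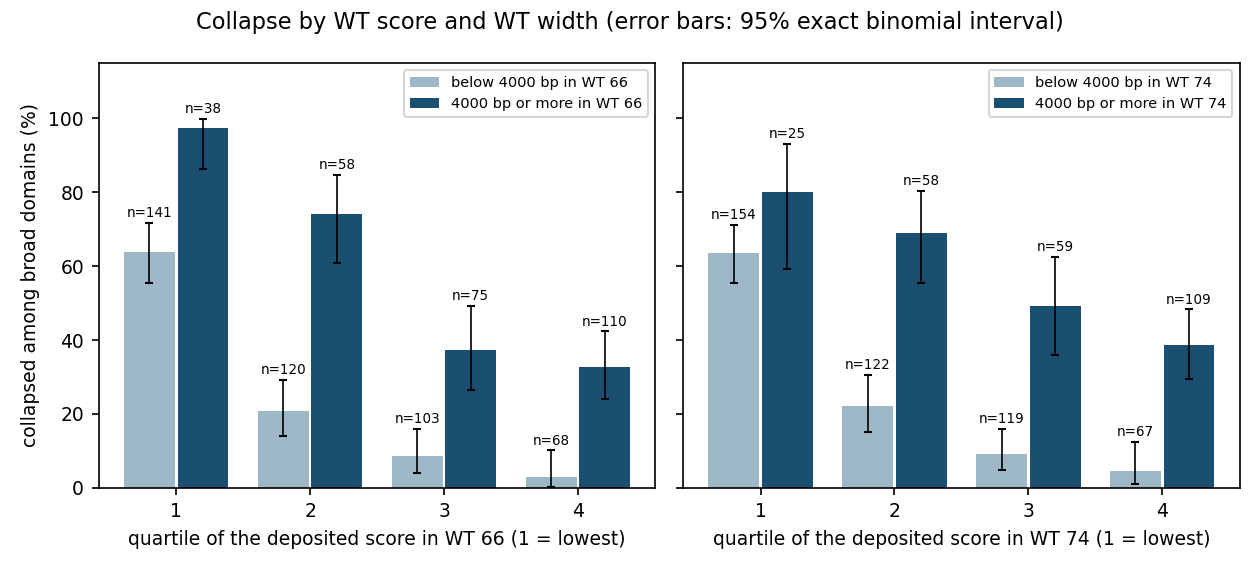
Share of broad domains that were collapsed (y axis, %) by quartile of the deposited score in WT 66 (left) and WT 74 (right), for domains below 4000 bp (light) and of 4000 bp or more (dark); error bars are 95% exact binomial intervals, which cover counting error only. The share falls from 97.4% of 38 long, low-scoring domains to 2.94% of 68 short, high-scoring ones by WT 66.

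In the KO lists the remnants had middling scores. Their median percentile was 55.8 in KO 67 (220 remnants) and 57.6 in KO 73 (255 remnants), whereas kept domains stood at 93.9 and 95.1. The remnants thus ranked near the middle of the KO lists, as the median region of both WT libraries did (52.2 in KO 67 and 56.2 in KO 73 where it was present). In 85 domains at most 1000 bp were left in KO 67, absent domains included, and in 45 in KO 73.

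Longer collapsed domains kept more sequence. With a mean WT length of 3000 to below 4000 bp (134 domains), the median left was 1369 bp (KO 67) and 1638 bp (KO 73). At 6000 bp or more (22 domains) it was 2618.5 and 3530.5 bp. The median ratio was 0.43 and 0.44 in these bins, but the limit of 0.6 caps it in both. Over all broad domains the share kept was lower in longer domains. These domains were picked by length in both WT libraries, so this is a description and was not tested. Binned by WT 66 and divided by WT 74, the median ratio was 0.70 at 3000 to below 3500 bp (251 domains) and 0.50 at 6000 bp or more (41 domains). Binned by WT 74 and divided by WT 66 it was 0.72 and 0.52. Even so, 36 of the 270 domains still covered at least 3000 bp in KO 73 and 14 did so in KO 67, with 10 in both.

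Domains were also picked by their lengths in 1 WT and 1 KO library and measured in the other 2. All 4 lists still set the bounds of the regions, and the limits were chosen with these data known. The libraries read were thus not independent of the choice. Picked by WT 66 and KO 67, 426 domains qualified, and in WT 74 and KO 73 the median ratio was 0.54, with 418 of them (98.1%) shorter in KO 73 than in WT 74. Over all 982 domains broad in WT 66 the median ratio in these 2 libraries was 0.73, and 93.0% were shorter in KO 73, so most of that count is shared by broad domains in general. The full condition was met again by 197 of the 426, 46.2% (95% exact binomial interval 41.4 to 51.1), compared with 25.6% of all 982. Those 982 include the 426 picked. A domain that meets the condition in both pairs must also meet it on the means, so all 197 are collapsed domains by arithmetic. The share therefore describes the same lengths and is no separate support for the fall. The other 3 ways of picking gave 54.1%, 48.3% and 56.0%, against 31.8%, 28.8% and 35.5% of all domains broad in the WT library used. Swapping the pair picked and the pair read gives the same domains that met the condition again, 197 or 203. Only the number picked differs, so the 4 shares are not separate readings. The median ratio was 0.38 to 0.54 over the 4 ways. Each reading has 1 library per genotype and no test, and the interval covers counting error only. Without the width condition, 31.8% to 45.2% of all domains broad in the WT library used were at or below 0.6 in the 4 readings. By the ratio alone, the shares between libraries of 1 genotype were smaller. Of the domains broad in WT 66, 3.26% were at or below 0.6 of that length in WT 74, and 2.29% the other way. Of the 258 domains broad in KO 73, 14.0% were at or below 0.6 in KO 67, and none of the 187 broad in KO 67 were in KO 73. These KO shares leave out most collapsed domains, of which 14 of 270 covered 3000 bp or more in KO 67 and 36 in KO 73. In 41 of the 270 only 1 KO library had a remnant. The shares within and between genotypes thus cover different sets of domains, and their difference was not tested.

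The chromosomes held different shares of collapsed domains, with wide intervals. The share ran from 8 of 33 broad domains on chromosome 19 (24.2%, interval 11.1 to 42.3) to 13 of 24 on chromosome 14 (54.2%, 32.8 to 74.4), and was 33.3% on chromosome 11, which had the most with 25 of 75. The intervals of chromosomes 14 and 19, which had the highest and lowest shares, overlap. All intervals given here cover counting error only, not the spread between libraries, and no difference between chromosomes was tested. Of the 270 collapsed domains, 23 (8.52%) lay within 100 kb of another. They formed 11 groups, the largest with 3 domains at chr5:26328372-26385439. Of the 443 kept domains, 36 (8.13%) had a collapsed domain that near. Any other broad domain lay within 100 kb of 20% of collapsed and 18.5% of kept domains, so the spacing was close in both sets. The nearest called region of any kind was at a median of 15.5 kb from collapsed domains, against 21.7 kb for kept domains. The nearest broad domain was itself collapsed for 117 of 270 collapsed domains (43.3%, 37.3 to 49.5) and for 164 of 443 kept ones (37.0%, 32.5 to 41.7). This difference was not tested either.

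Regions next to collapsed domains had about the same ratio of KO to WT coverage as the other called regions. The 976 other regions within 100 kb covered 1.32 Mb (WT 66), 1.30 Mb (WT 74), 0.924 Mb (KO 67) and 0.995 Mb (KO 73). Both KO sums lay below both WT sums, with means of 1.31 ± 0.0182 and 0.959 ± 0.0503 Mb (SD, n = 2 each). The log2 ratio of KO to WT was -0.45, with an exact permutation p = 0.33 (2-sided), the smallest that 2 against 2 libraries allow. Over the 14754 remaining regions that are not collapsed domains, the log2 ratio was -0.46, also with an exact permutation p = 0.33. With all broad domains left out on both sides the values were -0.46 and -0.47. Around kept domains, with broad domains left out as well, the value was -0.41, against -0.48 for the remaining regions. The difference between nearby and remaining regions was not tested.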

How the data were processed

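H3K4me3 ChIP-seq of testis gave 1 deposited region list per library in 2 WT and 2 KO libraries. Bowtie, HOMER and mm9 are named per the submitters' processing notes. Neither label nor header gives versions, settings, filters or the role of the inputs. The lists are BED tables with positions in bp and a deposited score of unstated scale, used only as a rank within a list and to find its step (scores below 100, tolerance 0.056). Starts were converted to count from 1.

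Overlapping or touching autosomal regions were joined, and covered bp were summed per library (Python 3.11.15, pandas 2.3.3, numpy 2.4.6, scipy 1.17.1). Domains were picked by the limits of 3000 bp and 0.6. The members, the limits and the lists were chosen with earlier results of these data known. Named domains were the 8 longest, the 8 with the largest fall, the 6 longest absent from both KO libraries, the 6 in which KO libraries differed most, and the 3 nearest each limit on either side. Nearby regions were compared by a 2-sided exact permutation test over the 4 libraries. Shares have 95% exact (Clopper-Pearson) intervals. As nothing states that libraries came from separate animals, p-values reflect the spread between libraries alone, possibly technical. Merging and picking were tested on simulated lists. Planned gene lists, cell type markers and sequence features needed gene positions or sequence in mm9 and were not used here. Read depth is unknown.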

Additional observations from a re-analysis of the deposited data

How the results depend on the processing

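The number of collapsed domains (270) was 251 to 386 with any 1 library left out, of which 233 to 258 were the same domains. It was 263 to 282 with a stricter score threshold, lists of one length, joining within 500 bp or the longest piece alone. Of the 270, 232 (longest piece) to 269 (joining) were found again in these. The number was 352 with WT 74 and KO 73 only, chosen after seeing the data, and 226 of the 270 were found again. It was 671 with a width minimum of 2000 bp, 109 with 4000 bp, 188 with a ratio limit of 0.5 and 407 with 0.7, as those limits admit more or fewer domains. With the ratio limit at 0.5 or 0.7 the median ratio was 0.35 or 0.52. The ratio stayed between 0.39 and 0.44 under the other alternatives run, including 0.41 to 0.44 with 1 library left out. The share of collapsed domains with a core in both KO libraries (80%) was 64.2% and 86.2% with width minima of 2000 and 4000 bp, 71.3% and 86.7% with ratio limits of 0.5 and 0.7, and 66.1% without regions below the 25th percentile of score. It was 74.6% to 76.7% with 1 WT library left out and could not be computed without a KO library. The mean share that met the condition again in the other libraries (51.2%) was 56.0% with a ratio limit of 0.7 and 49.3% to 54.7% otherwise. It averages ways of picking that are not separate readings. The log2 ratio of nearby regions was negative under every alternative run, from -0.49 to -0.33, and from -0.49 to -0.40 with 1 library left out. The collapsed minus kept difference of the median WT score percentile, -5.13 points, was -7.19 to -6.00 with 1 WT library left out. The 36 named regions were mostly chosen for their KO lengths, and these alternatives reuse the same lists, so their sign is no sign of stability. The smallest difference, without KO 67, was -22 bp at chr11:83251302-83255026. No paired analysis was possible because the WT and KO libraries share no replicate number. Without read depth, an absent call cannot be told from a signal just below the authors' threshold.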
